A study of Mus musculus with 6 samples.

Results

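The 10 transcripts described here encode parts of the T cell receptor, of its CD3 signalling complex and of cytotoxic granules, the adhesion receptor CD2 and the chemokine CCL5, in RNA from HK-2 cells, a tubule line in which such transcripts are not expected. They are TRAC, TRBC1, TRBC2, CD3D, CD3E, CD2, GNLY, NKG7, GZMB and CCL5, which make up 10 of the 39234 genes in the deposited table. They were picked after the fold changes of this experiment were known, because TRAC and GNLY were among its largest falls. The difference between the groups is therefore given for each of them as a description, with no test. HK-2 is an immortalized line of human proximal tubule cells. RNA was sequenced from 3 control and 3 USAG-1 overexpression libraries, all labelled as kidney, proximal tubular epithelial cells and genotype WT. For the cell experiments the study's text names transient plasmid transfection as the route to overexpression and an empty vector as its control, but the labels do not say what the control libraries carried, and the time after transfection is not given in the sources used here. The study's methods state that the cells tested negative for mycoplasma and that STR authentication was not performed. Mouse is the organism on the labels, but the line is human, as are all gene identifiers, and nothing states that the 3 libraries of a group came from separate cultures, so p-values measure the spread between these libraries only.

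A T cell reads antigen through a receptor of paired variable chains, alpha with beta in most T cells, and each chain joins a rearranged variable part to a constant part such as TRAC, TRBC1 or TRBC2. The chains cannot signal alone, and the CD3 proteins carry the signal into the cell. Cytotoxic T cells and natural killer cells store granzymes, perforin and granulysin in granules that are released onto a target cell. Tubule epithelium is not known to rearrange receptor genes or to make these granules, although CCL5 is also a chemokine of stimulated epithelial cells.

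The libraries held between 41236194 and 48699471 counts. At these depths 3 counts, the limit that a count of 0 allows, corresponded to between 0.0608 and 0.0719 CPM (counts divided by the library total and scaled to a common library size), which covers counting error alone. SOSTDC1, the gene of USAG-1, had 79, 80 and 60 counts in the control libraries against 5072, 3907 and 4438 counts in the overexpression libraries and so moved in the direction the labels state. PAX8, a transcription factor of the kidney epithelium, had between 15861 and 20605 counts in every library. The endocytic receptor LRP2, a defining marker of the proximal tubule, had 0 counts in all 6 libraries, and HNF4A, a transcription factor of that segment, had 4 counts in control replicate 1 and 0 in the others. Control replicate 3 stood apart from the other control libraries on the second principal component, at -54.3 against 28.2 and 25.2. Levels below are CPM scaled by TMM, an adjustment for library composition, and are not divided by transcript length, so that they compare libraries and not genes.

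The alpha constant chain TRAC (ENSG00000277734, chromosome 14, 22547506 to 22552156, hg38) had 410, 486 and 469 counts in control replicates 1 to 3. In the overexpression libraries it had 40, 13 and 11 counts. Every control library lay far above every overexpression library, and overexpression replicate 1 held the most TRAC of its group. The level was 10.2 ± 0.672 CPM in control libraries and 0.475 ± 0.344 CPM in overexpression libraries (SD, n = 3 each), which is 21.5-fold lower, with a log2 fold change of -4.41 (SE 0.40) that became -5.19 without overexpression replicate 1. In bulk RNA, fewer cells of a type and less RNA per cell cannot be told apart. The counts also do not show whether these reads came from the HK-2 cells, from other cells or from other samples, which was not tested, so a level is that of a library.

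The beta constant chains lie next to each other on chromosome 7 and are nearly identical in sequence, so the split of reads between them is uncertain. TRBC1 (ENSG00000211751, 142791694 to 142793368) had 126, 127 and 179 counts in the control libraries against 9, 7 and 18 in the overexpression libraries. TRBC2 (ENSG00000211772, 142801041 to 142802748) had 325, 354 and 345 counts against 49, 25 and 36. The groups did not overlap for either chain, and the highest overexpression library was replicate 3 for TRBC1 and replicate 1 for TRBC2. TRBC1 was 12.7-fold lower, from 3.26 ± 0.839 to 0.258 ± 0.139 CPM, with a log2 fold change of -3.65 (SE 0.39). TRBC2 was 9.32-fold lower, from 7.68 ± 0.467 to 0.825 ± 0.247 CPM, with a log2 fold change of -3.21 (SE 0.23). The control libraries were close to each other in TRBC2, whereas TRBC1 was highest in control replicate 3.

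CD3D and CD3E encode the delta and epsilon chains of CD3, and their genes lie near each other on chromosome 11. CD3D (ENSG00000167286, 118339075 to 118342705) had 85, 89 and 93 counts in the control libraries against 0, 9 and 11 in the overexpression libraries. CD3E (ENSG00000198851, 118304730 to 118316175) had 224, 179 and 261 counts against 39, 27 and 19. Overexpression replicate 1 thus held no CD3D count but the most CD3E counts of its group. CD3D went from 2.01 ± 0.19 to 0.154 ± 0.135 CPM (SD, n = 3), 13.1-fold lower, with a log2 fold change of -3.70 (SE 0.69) that became -3.10 without overexpression replicate 1. CD3E went from 5.04 ± 1.28 to 0.636 ± 0.205 CPM, 7.92-fold lower, with a log2 fold change of -2.98 (SE 0.31). Only 1 of the 6 libraries held no CD3D count.

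CD2, an adhesion receptor of T and natural killer cells that binds CD58 on other cells, lies on chromosome 1 (ENSG00000116824, 116754430 to 116769229). It had 88, 164 and 170 counts in the control libraries against 12, 0 and 6 in the overexpression libraries. The groups did not overlap, control replicate 1 lay below the other control libraries, and overexpression replicate 2 held no CD2 count. The level fell from 3.14 ± 0.953 to 0.133 ± 0.131 CPM, which is 23.5-fold lower, with a log2 fold change of -4.51 (SE 0.68), the largest fall of the 10, and -5.45 without overexpression replicate 1.

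Granulysin (GNLY), a granule protein that breaks membranes of microbes and target cells, had 933, 1148 and 1235 counts in the control libraries (ENSG00000115523, chromosome 2, 85685175 to 85698852). The overexpression libraries held 21, 60 and 80 counts. No control library came near an overexpression library, and overexpression replicate 1, the highest of its group in TRAC, was the lowest in GNLY. The level was 24.9 ± 3.58 CPM against 1.23 ± 0.709 CPM, 20.2-fold lower, with a log2 fold change of -4.34 (SE 0.38).

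Granzyme B (GZMB), the serine protease that starts cell death in the target cell, had 344, 382 and 515 counts in the control libraries against 18, 23 and 21 in the overexpression libraries (ENSG00000100453, chromosome 14, 24630954 to 24634209). Its overexpression libraries were the most even of the 10 transcripts in CPM, at 0.392, 0.527 and 0.487. The mean went from 9.35 ± 2.37 to 0.468 ± 0.0691 CPM, 20-fold lower, with a log2 fold change of -4.31 (SE 0.25). NKG7, a membrane protein of cytotoxic granules, fell less. It had 125, 244 and 264 counts in the control libraries against 58, 41 and 29 in the overexpression libraries (ENSG00000105374, chromosome 19, 51371606 to 51372701). Control replicate 1, at 2.99 CPM, lay only 2.37-fold above overexpression replicate 1, at 1.26 CPM, the smallest gap between the groups for any of the 10. The mean of NKG7 went from 4.71 ± 1.61 to 0.958 ± 0.296 CPM, 4.92-fold lower, with a log2 fold change of -2.29 (SE 0.33).

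CCL5, a chemokine that draws T cells and monocytes, had 336, 428 and 533 counts in the control libraries against 90, 135 and 91 in the overexpression libraries (ENSG00000271503, chromosome 17, 35871491 to 35880793). The groups did not overlap, and CCL5 kept the most of its control level among the 10, at 24.5%. It went from 9.74 ± 2.41 to 2.39 ± 0.615 CPM, 4.08-fold lower, with a log2 fold change of -2.03 (SE 0.24).

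**Figure D1:**
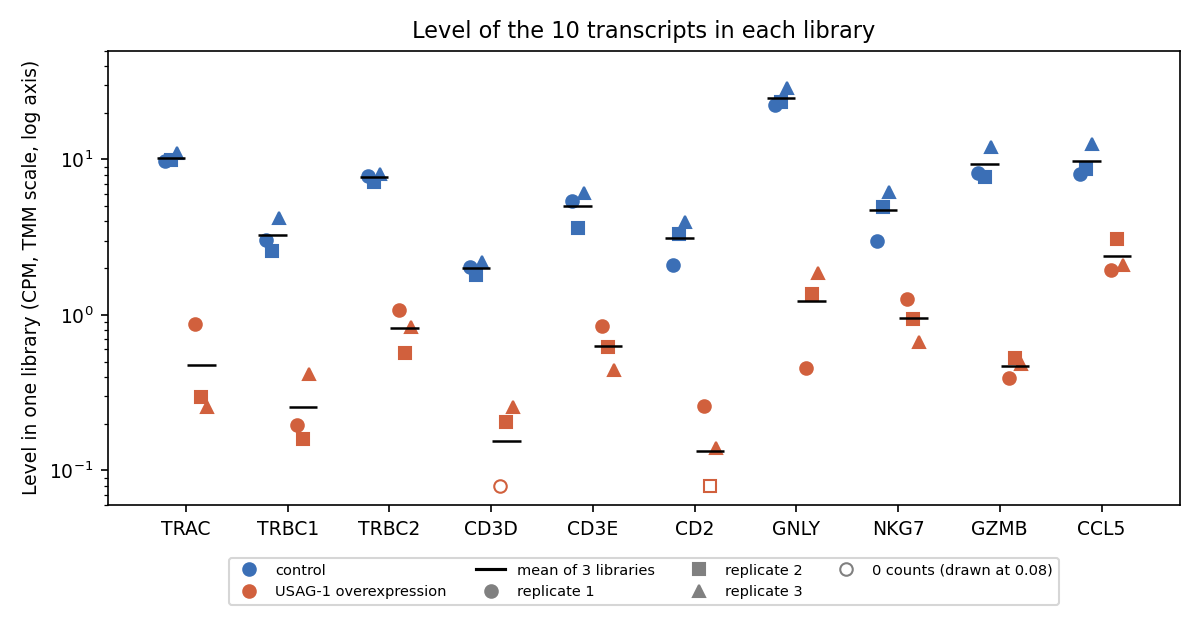
The level of each of the 10 transcripts in each library in CPM on a log axis, with blue for control and orange for USAG-1 overexpression, a marker shape for each replicate and a line for the mean of 3 libraries. Control libraries lie above overexpression libraries for all 10, and the hollow markers are CD3D in overexpression replicate 1 and CD2 in overexpression replicate 2, which had 0 counts.

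All 10 transcripts passed the filter on low counts, and for all 10 the lowest control library lay above the highest overexpression library. Among the 18188 genes tested, 18.1% were lower with no overlap between the groups, and edgeR's quasi-likelihood test called 6.91% lower at a Benjamini-Hochberg adjusted p under 0.05. Since this contrast chose the 10, nothing is read from their count against these shares. Ranked by log2 fold change from the most negative over all genes tested, CD2 stood at place 26, TRAC at 29, GNLY at 32, GZMB at 36, CD3D at 45 and TRBC1 at 47. TRBC2 stood at 70, CD3E at 88, NKG7 at 178 and CCL5 at 233. The median log2 fold change of the 10 was -3.67, and that of all genes tested was -0.02.

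Summed over the 10, the control libraries held 2996, 3601 and 4064 counts, and the overexpression libraries held 336, 340 and 322. In CPM these sums were 71.8, 73.0 and 95.3 against 7.32, 7.79 and 7.46. The sum was 10.6-fold lower in overexpression libraries, at 7.52 ± 0.24 against 80.0 ± 13.3 CPM (SD, n = 3). The overexpression libraries were nearly equal in the sum, although single transcripts differed among them several-fold. Among the control libraries, replicate 3 was the highest in CPM for 10 of the 10 transcripts. The share of all genes that were highest in that library is not given here, so nothing about the 10 is read from this count. The 10 transcripts together made up 0.00792% of all counts in control libraries and 0.000756% in overexpression libraries.

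The 10 did not keep their proportions. GNLY held 31.1% ± 0.746 of their summed CPM in control libraries and 16.2% ± 9.38 in overexpression libraries, whereas CCL5 went from 12.1% ± 0.964 to 31.6% ± 7.07 and NKG7 from 5.81% ± 1.43 to 12.8% ± 4.17 (SD, n = 3). TRAC went from 12.9% ± 1.19 to 6.38% ± 4.79, and TRBC2 from 9.72% ± 1.18 to 11.0% ± 3.62. GZMB went from 11.6% ± 1.04 to 6.21% ± 0.752. CCL5 and NKG7 thus had larger mean shares of what was left and GNLY and GZMB smaller ones. Among the overexpression libraries the share of GNLY varied most of the 10, with an SD of 9.38. The SD was 7.07 for CCL5 and 4.79 for TRAC.

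The balance between some of the transcripts varied among the overexpression libraries. The ratios to TRAC share its 40, 13 and 11 counts there as their denominator. The ratio of GNLY counts to TRAC counts was 2.28, 2.36 and 2.63 in the control libraries. In overexpression replicate 1 it was 0.525, with an exact 95% interval of 0.294 to 0.912. In overexpression replicate 2 it was 4.62 (2.51 to 9.17), and in replicate 3 it was 7.27 (3.85 to 15.2). Overexpression replicate 1 thus lay below every control library, and the intervals of the other overexpression libraries lay apart from its own. The ratio of GZMB to TRAC had the same order, at 0.450 (0.243 to 0.803) in overexpression replicate 1, 1.77 (0.859 to 3.80) in replicate 2 and 1.91 (0.880 to 4.38) in replicate 3, against 0.786 to 1.10 in the control libraries. The ratio of CCL5 to TRAC was between 0.820 and 1.14 in the control libraries. It was higher in every overexpression library, at 2.25 (1.53 to 3.35), 10.4 (5.87 to 20) and 8.27 (4.41 to 17.2). Ratios between chains of 1 complex were mixed. The ratio of TRBC2 to TRAC was 0.793, 0.728 and 0.736 in the control libraries. It was higher in every overexpression library, at 1.23 (0.79 to 1.91), 1.92 (0.947 to 4.09) and 3.27 (1.63 to 7.13). The ratio of TRBC2 to TRBC1 was 2.58, 2.79 and 1.93 in the control libraries. In the overexpression libraries it was 5.44 (2.65 to 12.6), 3.57 (1.5 to 9.78) and 2.00 (1.11 to 3.74), with intervals that overlap each other. The ratio of CD3E to CD3D was between 2.01 and 2.81 in the control libraries. It was 3.00 (1.37 to 7.25) and 1.73 (0.781 to 4.02) in overexpression replicates 2 and 3. Overexpression replicate 1 had 39 CD3E counts and no CD3D count, with an interval that began at 10.1, above the highest control bound of 3.6. These intervals cover counting error alone, as the reads carry no molecular identifiers and copies of 1 molecule can be counted more than once.

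**Figure D2:**
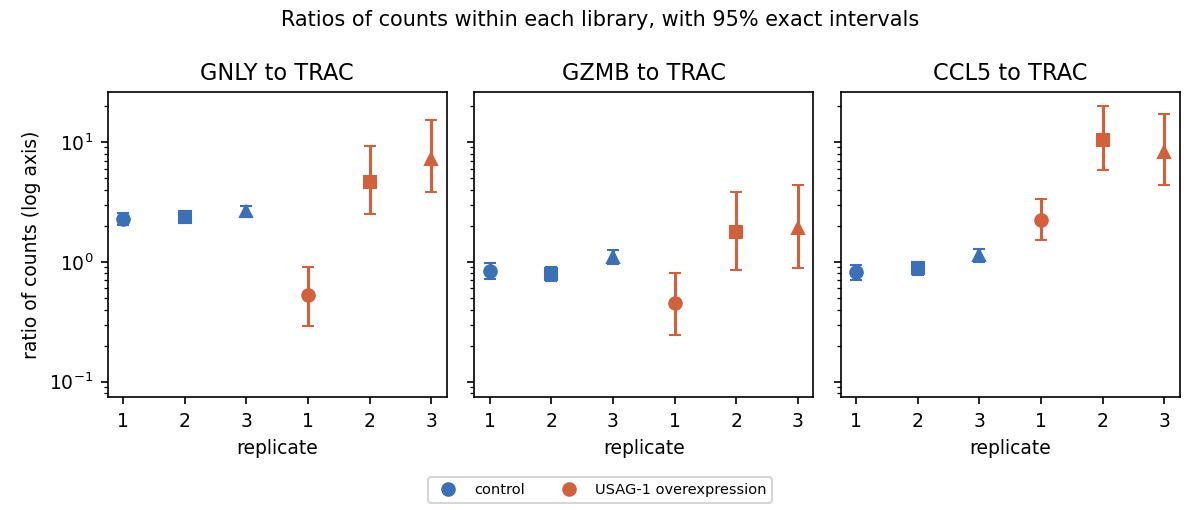
Ratio of the counts of GNLY, GZMB and CCL5 to those of TRAC within each library on a log axis, with points for the 6 libraries and bars for exact 95% intervals of counting error. The 3 control libraries lie together in each panel, while overexpression replicate 1 lies below them for GNLY and apart from overexpression replicates 2 and 3 in all panels.

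A rearranged receptor transcript also carries a variable (V) segment, and the table holds 101 T cell receptor V genes of the alpha, beta, gamma and delta chains, of which 78 had a count in some library. The control libraries had counts on 46, 43 and 38 of them, with 255, 296 and 299 counts in all. The overexpression libraries had counts on 6, 3 and 11, with 27, 8 and 39 counts in all. Many segments thus shared the counts of each control library, and the segment with the most counts held only 6.67%, 8.78% and 6.02% of them. Alpha V segments had 123, 167 and 157 counts in the control libraries against 14, 0 and 3 in the overexpression libraries. Beta V segments had 105, 111 and 121 counts against 11, 3 and 34. Single segments were too low to test, as 1 of the 101 passed the filter on low counts. V segments of immunoglobulin, the receptor of B cells, did not follow the same split, with 68, 48 and 98 counts in the control libraries against 37, 76 and 107 in the overexpression libraries.

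**Figure D3:**
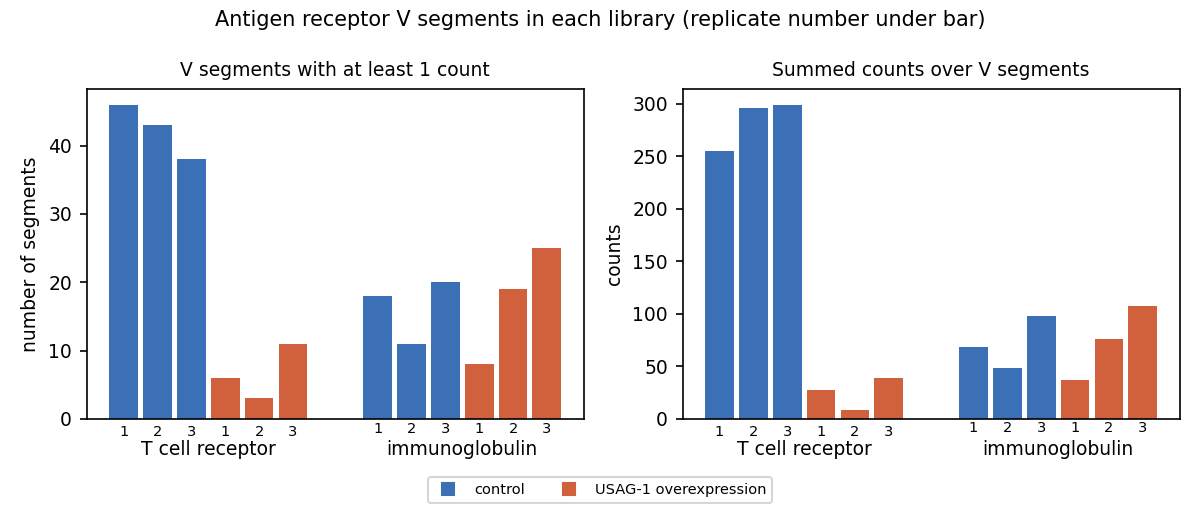
Number of V segments with at least 1 count and their summed counts in each library, for T cell receptor and immunoglobulin genes, with blue bars for control and orange bars for USAG-1 overexpression. T cell receptor segments are higher in each control library than in each overexpression library, whereas immunoglobulin segments overlap between the groups.

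Among 24 other genes of the T cell receptor complex and its signalling, 20 passed the filter, 15 were called lower and 0 higher by edgeR's quasi-likelihood test, where 6.91% of all genes tested were called lower and 8.95% higher. At an unadjusted p under 0.05, 18 were lower and 0 higher, where 14.7% of all genes were lower and 15.8% higher. DESeq2 called 18 lower and 0 higher, where it called 9.49% of all genes lower and 11.2% higher. The median log2 fold change of the 20 was -2.12, against -0.02 for all genes tested. The filter on low counts can be passed through the control libraries alone. SH2D1A and IL2RA, given below, did so with 0 counts in every overexpression library. A gene that passes this way can hardly be called higher, which limits the counts for this and the other lists. The shares over all genes tested hold such genes too, and how many is not given here. CD8A, the co-receptor of cytotoxic T cells, fell 10.4-fold, with 291, 317 and 284 counts in the control libraries against 38, 17 and 31 in the overexpression libraries (log2 fold change -3.37, SE 0.27). CD3G, the gamma chain of CD3, fell 13.5-fold, and LCK, the kinase that phosphorylates CD3, fell 5.72-fold. LAT, the adaptor downstream of the receptor, differed from the others, with 1647, 2079 and 2044 counts against 1464, 1928 and 1551 and a log2 fold change of -0.21 that was not called. PRKCQ, a kinase of the same pathway, had a log2 fold change of -0.55 that was not called either.

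The co-receptor CD4 and the constant chains of gamma-delta T cells were looked at after their values were seen. CD4, which helper T cells and macrophages carry, was called lower and fell 3.96-fold, from 218, 275 and 172 counts to 100, 24 and 44. That call was lost under 2 of 11 alternatives, without control replicate 2 and without overexpression replicate 3 (adjusted p by edgeR or DESeq2 between 3.34e-05 and 0.0861 over the 11), and the log2 fold change of CD4 went from -1.98 to -2.65 without overexpression replicate 1. CD8B, the partner of CD8A, was called lower and fell 9.57-fold, a call lost under 6 of 11 alternatives, among them without control replicate 1 or 2 and without overexpression replicate 2 or 3 (adjusted p by edgeR or DESeq2 between 0.000705 and 0.137 over the 11). Its log2 fold change went from -3.21 to -5.16 without overexpression replicate 1. TRDC had between 4 and 17 counts in the control libraries and between 0 and 8 in the overexpression libraries, and TRGC1 had between 6 and 22 against between 5 and 8. Both gamma-delta chains were too low to be tested, and their groups overlapped.

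Of 28 other genes of cytotoxic granules and natural killer receptors, 22 passed the filter, 9 were called lower and 0 higher by edgeR (DESeq2 called 9 and 0, and an unadjusted p under 0.05 was reached by 10 and 0). Their median log2 fold change was -1.33. Granzyme A (GZMA) fell 39.3-fold, with 296, 298 and 323 counts in the control libraries against 21, 0 and 3 in the overexpression libraries, and its log2 fold change went from -5.25 to -7.53 without overexpression replicate 1. Perforin (PRF1), which forms the pore that granzymes pass through, fell 8.40-fold, from 264, 399 and 318 counts to 75, 13 and 29, with a log2 fold change of -3.06 that became -3.90 without overexpression replicate 1. KLRK1, the activating receptor NKG2D, went from 45, 69 and 72 counts to 3, 0 and 0, and its log2 fold change went from -5.78 to -8.94 without overexpression replicate 1, which leaves only libraries at 0 in that group. SH2D1A, a signalling adaptor of T and natural killer cells, had 33, 88 and 43 counts in the control libraries against 0 in every overexpression library, so it was at least 17.6-fold lower with 3 counts per library as the floor. CTSW, a protease of cytotoxic cells, fell 6.22-fold, and SRGN, the proteoglycan core of granules, which many other cells also make, fell 2.19-fold.

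Not every gene of this list went the same way, as 13 of the 22 tested were not called, several natural killer receptors among them. One of these receptors had the highest log2 fold change of the list, at 0.75. Granzyme H (GZMH), looked at after its values were seen, had 0, 36 and 80 counts in the control libraries against 34, 18 and 24 in the overexpression libraries, which overlap. TYROBP, an adaptor shared by natural killer and myeloid cells, had 77, 62 and 185 counts against 74, 135 and 124, with a log2 fold change of 0.03 that was not called. Perforin was highest among the overexpression libraries in replicate 1, as TRAC was, and GNLY was lowest there.

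The list of other T cell surface receptors and transcription factors held 30 genes, of which 29 passed the filter. Of these 19 were called lower and 1, TOX, higher (DESeq2 called 21 and 1), and the median log2 fold change was -2.46. IL2RA, the alpha chain of the interleukin-2 receptor, had 114, 149 and 156 counts in the control libraries against 0 in all overexpression libraries, at least 46.2-fold lower. IL2RB, its beta chain, fell 7.64-fold and the adhesion receptor CD6 fell 12-fold. The 3 genes of this list with the highest level were not called, with a log2 fold change of 0.27 for the interleukin-7 receptor IL7R, -0.34 for TCF7 and -0.10 for IKZF3. TOX, named after its values were seen, was called higher and rose from 235, 282 and 249 counts to 558, 604 and 505.

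T cell cytokines and chemokines other than CCL5 numbered 11, of which 6 passed the filter and 2 were called lower and 0 higher. The count of 2 became 1 without control replicate 2 or 3 and without any 1 of the overexpression libraries. The called genes were LTB, a cytokine of lymphocytes, which fell 2.78-fold, and CD40LG, the ligand by which T cells help B cells, with 15, 12 and 46 counts against 0, 4 and 0. The call of CD40LG was lost under 8 of 10 alternatives, each omission of 1 library among them (adjusted p between 0.0431 and 0.136 over the 10 by edgeR), and its log2 fold change of -4.09 became -3.19 without control replicate 3 and -7.64 without overexpression replicate 2. CCL3, a chemokine of the same family as CCL5, had 45, 37 and 31 counts against 8, 19 and 28 and was not called. IL32 had the highest level of the list, between 142 and 227 CPM in every library, with a log2 fold change of -0.33 that was not called. Of 7 genes of immature T cells in the table, out of a list of 10, 2 passed the filter, and 0 were called in either direction by edgeR, by DESeq2 or at an unadjusted p under 0.05, where edgeR called 15.9% of all genes tested in either direction. RAG1 and TAL1 were the 2 that were tested.

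**Figure D4:**
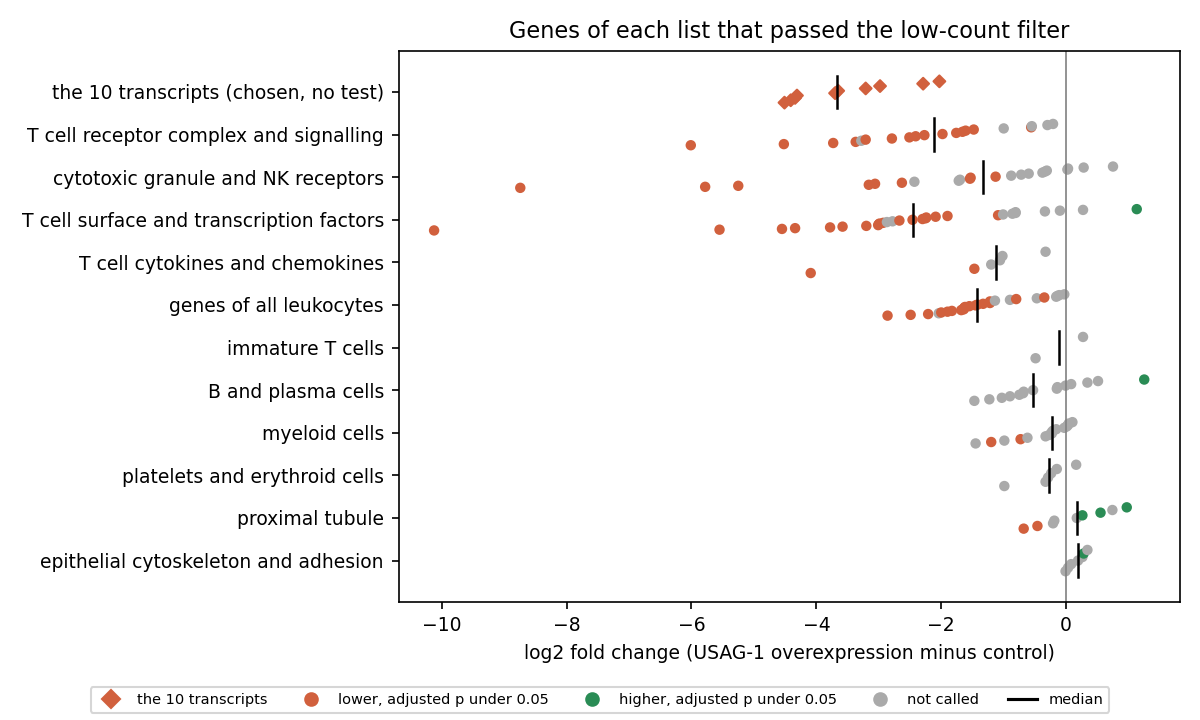
Log2 fold change of USAG-1 overexpression minus control for each gene that passed the low-count filter, by list, with diamonds for the 10 transcripts chosen on this contrast, orange for genes called lower, green for genes called higher, grey for genes not called and a black line for each median. The medians of the T cell lists lie between -2.46 and -1.13, apart from immature T cells with 2 genes at -0.11, and the points left of -8 are genes with 0 counts in all overexpression libraries, whose fitted values depend on the prior count.

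Genes of other blood cells were read in the same libraries. Of 28 genes shared by all leukocytes, such as the adhesion integrin ITGB2, 28 passed the filter, 20 were called lower and 0 higher, and their median log2 fold change was -1.43. Their summed level went from between 407 and 482 CPM to between 269 and 287 CPM. IKZF1, a transcription factor of lymphoid cells, fell 7.28-fold, while CD53 and LAPTM5, membrane proteins of leukocytes, fell 3.07-fold and 2.73-fold. ARHGDIB was called lower and fell 1.28-fold, a call lost under 5 of 11 alternatives, among them without control replicate 1 and without any 1 of the overexpression libraries (adjusted p by edgeR or DESeq2 between 0.00597 and 0.122 over the 11). RAC2, with 113 to 142 CPM in control libraries and 111 to 121 CPM in overexpression libraries, and ITGB2 were not called.

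Of 19 genes of B and plasma cells in the table, out of a list of 20, 15 were tested, 0 were called lower and 1, CD22, higher. At an unadjusted p under 0.05, 2 were lower and 1 higher, and DESeq2 called 2 lower and 1 higher. The count of 0 became 2 without control replicate 3 and 1 without overexpression replicate 3. Their summed level was between 20.1 and 21.5 CPM in control libraries and between 19.9 and 26.8 CPM in overexpression libraries, and their defining markers were low but not at 0, as with MS4A1 at 77, 39 and 33 counts against 16, 34 and 23. Of 21 myeloid genes, 16 were tested. Of these, 2 (LYZ and ITGAM) were called lower and 0 higher, where 6.91% of all genes tested were called lower. The count of 2 became 1 without control replicate 1 or without any 1 of the overexpression libraries, LYZ being the call lost. Their summed level overlapped between the groups, at between 75.6 and 163 CPM against between 58.4 and 116 CPM. Of 11 platelet and erythroid genes in the table, out of a list of 13, 6 were tested, and 0 were called in either direction by edgeR, by DESeq2 or at an unadjusted p under 0.05. Their summed level was between 8.19 and 111 CPM in control libraries and between 9.02 and 78.4 CPM in overexpression libraries. The sums of the 10 transcripts did not overlap between the groups, but the 10 were chosen on this contrast. Sums of the genes shared by all leukocytes did not overlap either, nor did those of the T cell receptor list, at 103 to 119 CPM against 56 to 64.4 CPM. The sums of the proximal tubule genes, given below, also did not overlap and were higher in overexpression libraries. The part of blood cell RNA in the values of the 10 was not tested.

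**Figure D5:**
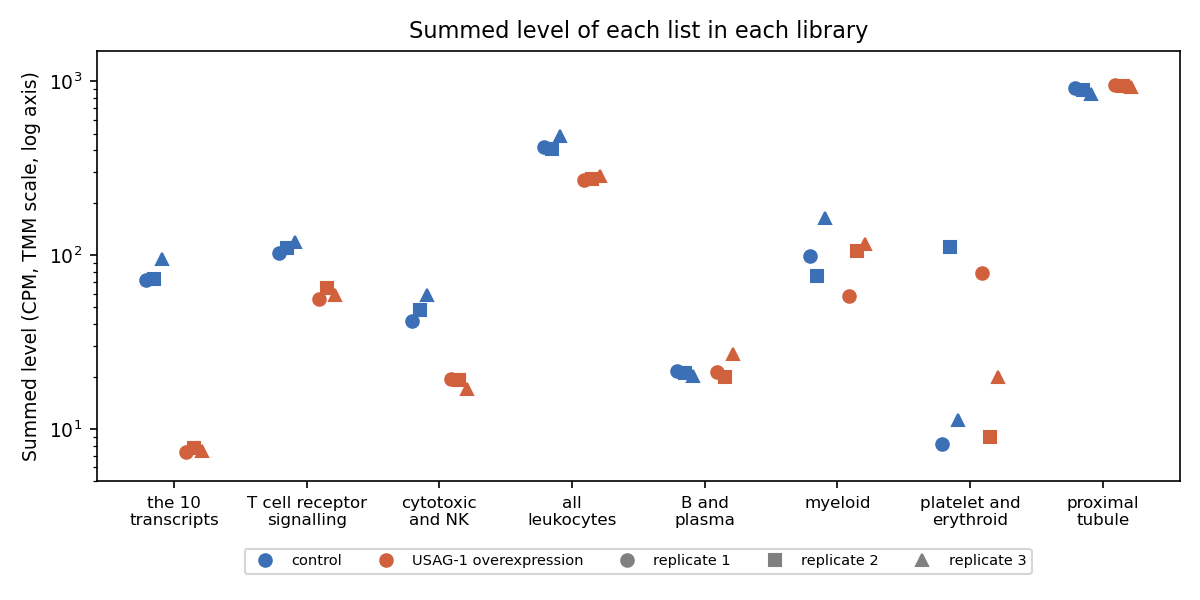
Summed level in CPM on a log axis of the 10 transcripts and of each list, with a point for each library, blue for control and orange for USAG-1 overexpression. The 10 transcripts lie between 71.8 and 95.3 CPM in control libraries and between 7.32 and 7.79 CPM in overexpression libraries, while B and plasma cell, myeloid, and platelet and erythroid genes overlap between the groups.

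Epithelial genes were read beside them. Of 15 proximal tubule genes in the table, out of a list of 17, 9 were tested, 2 were called lower and 3 higher, with a summed level between 842 and 920 CPM in control libraries and between 931 and 954 CPM in overexpression libraries. MME, a brush border peptidase, was called higher, with a log2 fold change of 0.97. PAX8 was called higher too, with a log2 fold change of 0.26, a call lost under 4 of 11 alternatives. The cadherin CDH16 was called lower, with -0.68, a call lost without overexpression replicate 2. Of 8 genes of the epithelial cytoskeleton and adhesion, 7 were tested, 0 were called lower and 1 higher. Of the 7, 0 were lower and 3 higher at an unadjusted p under 0.05, and DESeq2 called 0 lower and 2 higher. KRT8 and KRT18, keratins of simple epithelia, were not called, with log2 fold changes of 0.03 and 0.34.

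The genes next to the 10 on the chromosome were read as well. Within 100 kb of the 10 lie 137 other genes, and 26 of these passed the filter. Of the 26, 3 were called lower and 1 higher, with a median log2 fold change of -0.12, where 6.91% of all genes tested were called lower and 8.95% higher. Outside the lists and the receptor segments, 24 neighbours were tested, 2 were called lower and 1 higher, with a median of -0.11. CD3G, a neighbour of CD3D, was among the 3 called lower, and the others, named after their values were seen, were MPZL3 and ATP5MG, of which MPZL3 lost its call under 6 of 11 alternatives, among them without control replicate 1 or 2 and without overexpression replicate 1 or 3. On the other strand from GNLY and CCL5 the table lists 1 overlapping gene each, with 0 counts in all libraries.

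The genes whose pattern over the 6 libraries was most like that of the 10 were found by the root mean square distance between log2 CPM profiles, each centred on its own mean, and the median profile of the 10. The nearest of 16233 genes was CD8A, at a distance of 0.23, where the median over these genes was 1.71. ITPRIPL1 (0.26), ZBTB32 (0.28), MT-TV (0.33), CD9 (0.34), CD6 (0.36), IKZF1 (0.38), SPN (0.38), MT-TF (0.39) and LINC02446 (0.40) followed. CD8A, CD6 and IKZF1 were in the lists, and SPN encodes the leukocyte sialoprotein CD43. ITPRIPL1, ZBTB32 and CD9 had at most 23 counts in a control library and 0 in the overexpression libraries, so that they were at least 6.48-fold, 5.02-fold and 5.12-fold lower. At 0 counts the prior count sets the log2 CPM, so the small distances of these genes depend on it and do not show a shared pattern. MT-TV and MT-TF, transfer RNA genes of the mitochondrial genome, had between 1103 and 2313 counts in the control libraries and between 117 and 191 in the overexpression libraries. Among the 10 themselves, TRBC2 lay closest to the median profile at 0.19, and CD3D (1.06), GNLY (0.93) and CD2 (0.89) lay farthest. The distance is a description over 6 libraries, and 6 of the 10 nearest genes stayed with a prior count of 0.5 in place of 2.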

How the data were processed

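The authors deposited 1 table of whole-number counts per gene for 6 libraries, not normalized, with gene positions. The labels describe poly(A) selection and a strand-specific protocol, while the series' design text names ribosomal RNA removal. The submitters' processing notes name cutadapt 1.9, FastQC and hg38, and the aligner and the counting tool are not given in the sources used here. Libraries were grouped by the condition in their titles, and each title's replicate number was kept. The columns of counts matched the sample descriptions, and 0 columns were left over.

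Genes were filtered with edgeR 4.0.16 (filterByExpr), scaled by TMM and tested with its quasi-likelihood test of USAG-1 overexpression against control, in R 4.3.3. Benjamini-Hochberg adjustment covered the 18188 genes tested, and a gene was called where its adjusted p lay under 0.05. DESeq2 1.42.0 (Wald test), the tool in the study's methods, served as an alternative. The 18188 genes held 99.9% of all counts, and the library totals are in the text. Standard errors were obtained by dividing each log2 fold change by the root of its F statistic. Log2 CPM for principal components and profiles used a prior count of 2. Figures were drawn with matplotlib 3.10.9.

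The 10 transcripts and the 11 gene lists, 210 genes typed from general knowledge, were chosen with earlier results of these data known. The text names the 10, SOSTDC1, the 3 genes of each list with the highest mean CPM, up to 3 called genes of each list with the smallest p, and the 10 genes nearest in pattern. Any other gene was named after its values were seen. Libraries of the same group differed by more than counting noise, with a chi-square per degree of freedom of at least 6.52. The code was tested on simulated data. Alternatives were DESeq2's size factors, library sizes alone, DESeq2's Wald test, no filter on low counts, a replicate block and each library left out in turn. Sequences of the human transcripts were not analysed here.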

Additional observations from a re-analysis of the deposited data

How the results depend on the processing

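The log2 ratio of the summed level of the 10 transcripts stayed between -3.48 and -3.27 over the alternatives, and each transcript stayed lower in overexpression, with the widest ranges for CD2 (-5.45 to -3.94), CD3D (-4.27 to -3.10) and TRAC (-5.19 to -4.11). Over all genes, 2884 were called, and 1137 to 5091 with 1 library left out. Each of the 6 omissions moved this count by more than 1.5-fold, and only leaving out control replicate 3 raised it. DESeq2 called 3761. Genes called lower ranged from 10 to 18 for the T cell receptor list, 6 to 9 for the cytotoxic list, 16 to 21 for T cell surface genes and 16 to 22 for all leukocytes, in fits that called between 2.67% and 11.2% of all genes lower. For B and plasma cells 0 became 1 with DESeq2's size factors, 2 with DESeq2's Wald test and 0 to 2 with 1 library left out. For myeloid genes 2 became 1 with library sizes alone, 1 without a filter and 1 to 3 with 1 library left out. For T cell cytokines 2 became 1 without a filter, 1 with a replicate block and 1 to 2 with 1 library left out. The causes were not tested. Of 60 named genes outside the 10, 38 were called and 13 of these lost the call under some alternative (ARHGDIB, CD4, CD40LG, CD8B, CD9, CDH16, CDH2, CDH6, LINC02446, LYZ, MPZL3, PAX8 and ZBTB32). DESeq2 gave no adjusted p for 5 of the 60, which were not counted as lost. Genes that turned direction were all uncalled in the full fit. With library sizes alone S100A9 was at 0.01 and VIM at 0.01. With 1 library left out, ranges were -0.38 to 1.2 (CSF3R), -0.87 to 0.95 (HBA1), -1.06 to 1.83 (HBA2), -2.36 to 2.64 (HBB), -0.49 to 0.11 (IGHM), -0.05 to 0.17 (KRT8), -0.13 to 0.72 (RAG1), -0.41 to 1.00 (S100A9) and -0.07 to 0.11 (VIM).

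Replicate numbers were shared by the groups' titles. The deviations of same-numbered libraries correlated at 0.07, -0.05 and 0.04, which gave no sign of pairing by number over all genes tested. These values cannot show whether same-numbered libraries were prepared together, and the labels do not say. With the replicate block 2381 genes were called, and HBA1 (0.05), HBA2 (0.49), HBB (0.60), S100A9 (0.06) and VIM (0.00) turned direction. Depth limited single receptor segments and genes under 3 counts a library.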

Other observations

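The genes of erythroid cells and neutrophils named here varied between single libraries and not with the groups. Of the 16 myeloid genes tested, ITGAM and LYZ were called lower, where 6.91% of all genes tested were called lower. LYZ lost its call under 6 of 11 alternatives. HBB, a haemoglobin chain, had 144, 3475 and 134 counts in control replicates 1 to 3 and 2368, 90 and 344 counts in the overexpression libraries. HBA2, its partner chain, had 52, 1002 and 124 counts against 658, 135 and 206. The highest libraries were thus control replicate 2 and overexpression replicate 1 for both chains.

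S100A8, a calcium-binding protein of neutrophils and monocytes, had 120, 95 and 980 counts in the control libraries against 102, 707 and 430 in the overexpression libraries. CSF3R, the receptor for granulocyte colony-stimulating factor, had 278, 201 and 1073 counts against 115, 791 and 698. Control replicate 3 was the highest library for both, and it was also the control library with the highest level of each of the 10 T cell and cytotoxic transcripts. How many of all genes were highest there is not given here. The sums over the 10 transcripts were 71.8, 73.0 and 95.3 CPM in control replicates 1 to 3. In overexpression replicates 1 to 3 they were 7.32, 7.79 and 7.46 CPM. The part of these cells' RNA in the values of the 10 transcripts was not tested.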
